A study of Mus musculus with 2 samples.

Results

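The genes described here encode enzymes that build, transfer and trim the sugar chains of glycoproteins, and those that make the glycosylphosphatidylinositol (GPI) anchor. They were chosen by gene symbol alone, as the rows of the expression table whose symbols belong to the Alg, Pig, Dpm, Rpn, Stt3, Ddost, Mgat, B4galt, B3g, Galnt, Man1, Man2, St3gal, St6gal, Fut, Pomt and Pgap series. The symbols gave 85 of the 11262 genes in the table. No expression value entered the choice, although the set was proposed with earlier results of these data known.

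The study measured polyadenylated RNA of the second polar body (PB2) and of the zygote it was taken from, to learn which transcripts the small cell carries. Both came from untreated C57BL/6 mouse embryos (the study's methods name C57BL/6N as its usual strain) at the late 1-cell stage. The zona pellucida was dissolved in acid Tyrode's solution, PB2 was separated from the embryo by pipetting in trypsin, and full-length cDNA of pooled cells was amplified before sequencing. There was 1 library of PB2 and 1 library of the zygote. No difference below therefore has a replicate check, and none was tested.

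Asparagine-linked (N-linked) glycosylation begins on dolichol, a long lipid of the endoplasmic reticulum (ER) membrane. Alg enzymes build a branched sugar on it, first on the cytosolic and then on the lumenal face, and the oligosaccharyltransferase moves the finished sugar to asparagines of new proteins. Pig proteins build the GPI anchor on a phospholipid of the same membrane, and GPI transamidase joins it to the end of proteins that will sit on the outer surface of the cell. In the Golgi apparatus the N-linked sugar is trimmed by mannosidases, branched by Mgat enzymes and extended with galactose, sialic acid and fucose, while Galnt enzymes start a separate class of sugars on serine and threonine. Zona pellucida proteins and many surface proteins of the egg carry such sugars.

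Values are TPM (transcript levels scaled to a fixed library total), which are adjusted for transcript length, so that levels of different genes can be compared within a library. A TPM is a share of its library and not an amount per cell, and fewer transcripts in PB2 as a whole would not show in it. The ratio given for each gene is log2((PB2 TPM + 1)/(zygote TPM + 1)), which understates differences, most of all those of genes at a few TPM or less. It was computed for genes with at least 1 TPM in either library, and a gene was counted as higher in one library when this ratio was at least 2-fold. Every statement of 2-fold below is on this scale, so a gene more than 2-fold apart in plain TPM can count as within it. Depth is unknown, since the table holds no counts.

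Of the 85 genes, 81 reached 1 TPM in at least 1 library. Man2a2, B3gat2, Galnt13 and Galnt16 did not, with values from 0.1 to 0.8 TPM. Among the 81 genes, 18 stood 2-fold or more above their zygote level in PB2, which is 22.2%, beside a background of 18.9% over all 10645 genes compared. Another 6 genes, or 7.41%, stood 2-fold or more higher in the zygote, beside a background of 8.09%. Both shares were near the background, so the counts over the whole set are not a result about these enzymes. The other 57 genes were within 2-fold.

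The median log2 ratio of the 81 genes was 0.46, and that of all genes compared was 0.21. A ratio above 0 was found for 56 of them and a ratio below 0 for 25. Over all 10645 genes compared, 6298 had a ratio above 0 and 4262 a ratio below 0, so most genes leaned the same way. With the ratios centred on the median of all genes, the split of 18 and 6 became 13 and 9, beside background shares of 13.0% and 12.1%. Summed over the set, the enzymes made up 2272.3 TPM of the zygote library and 2422 TPM of the PB2 library. The genes just past the PB2 threshold were Pigt at 1.02, Galnt7 at 1.06 and Rpn1 at 1.09 on the log2 scale, and those just short of it were Alg9 at 0.99, B3glct at 0.93 and Alg8 at 0.90. On the zygote side B4galt1 at -1.0 and St3gal3 at -1.04 lay just past it, and Galntl5 at -0.93, Alg3 at -0.82 and Fut10 at -0.81 lay just short.

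**Figure D1:**
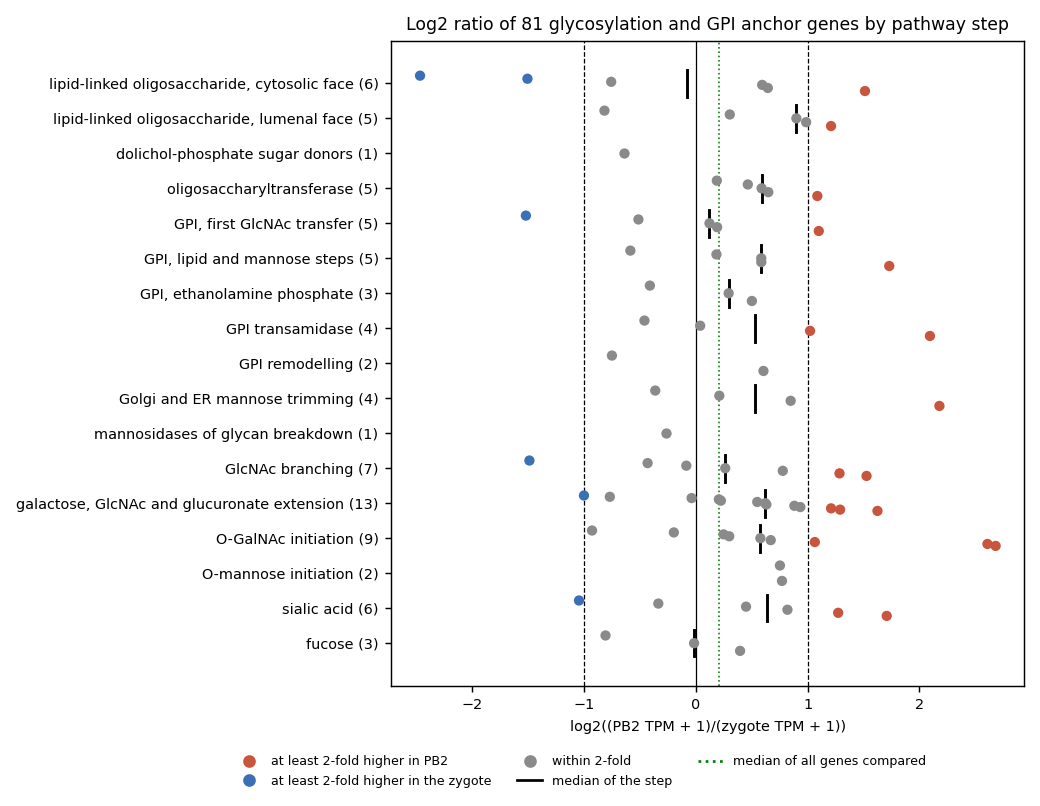
Each point is 1 of the 81 genes compared, placed by its log2((PB2 TPM + 1)/(zygote TPM + 1)) on the horizontal axis and by its pathway step on the vertical axis, with the number of genes of each step in brackets. Black bars mark the median of each step with at least 3 genes, dashed lines mark 2-fold and the dotted line marks the median of all genes at 0.21; genes at least 2-fold apart were spread over most steps, with Alg11 farthest to the left at -2.47 and Galnt9 farthest to the right at 2.68.

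Several of these differences separated genes of the same family, and 2 such pairs are shown as sequence, so that relatives with unlike ratios can be compared base by base. The pairs were picked for their unlike ratios after the values were seen, and say nothing on what set those ratios. Man1a and Man1c1 are both Golgi mannosidases I, and their proteins were identical at 57.1% of 616 aligned residues. Mgat4c and Mgat4b belong to the family that adds a branch to the N-linked sugar, and were identical at 32.1% of 471 aligned residues. The windows below are 60 coding bases each, aligned codon by codon, 5′ to 3′ on the strand of the gene, read from GENCODE M21 transcripts of the GRCm38 mouse genome. Each pair's window is the stretch of 20 codons, within 1 exon of each gene, that encodes the most identical residues. Of these, 18 were identical for Man1a and Man1c1 and 14 for Mgat4c and Mgat4b. The windows are thus more alike than the pairs as a whole. Capitals mark the bases at which the members of a pair differ.
Man1a (chr10:53925484-53925543, minus strand, exon 9): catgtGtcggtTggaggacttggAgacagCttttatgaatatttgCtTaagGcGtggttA
Man1c1 (chr4:134575994-134576053, minus strand, exon 8): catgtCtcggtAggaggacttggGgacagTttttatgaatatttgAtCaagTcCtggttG
Mgat4c (chr10:102388830-102388889, plus strand, exon 9): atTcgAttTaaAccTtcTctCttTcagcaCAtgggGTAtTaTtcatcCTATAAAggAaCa
Mgat4b (chr11:50233309-50233368, plus strand, exon 10): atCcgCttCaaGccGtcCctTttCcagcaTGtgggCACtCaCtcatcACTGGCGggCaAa
The Man1a and Man1c1 windows differed at 9 bases, 7 of them in the last position of a codon, and each held 43.3% G or C. The Mgat4c and Mgat4b windows differed at 24 bases, 15 of them in the last position, and held 35.0% and 56.7% G or C. Over the whole coding sequence, 59.4% of last codon positions were G or C in Man1a and 72.5% in Man1c1, against 35.4% in Mgat4c and 74.3% in Mgat4b. Over the longest transcript, GC content was 45.4% in Man1a and 57.3% in Man1c1, and 35.3% in Mgat4c and 60.4% in Mgat4b, with the higher log2 ratio in the richer member of each pair. Enzymes of 1 step could also differ the other way, as did Alg10b, with 41.2% GC and a log2 ratio of 1.21, and Alg3, with 54.2% GC and a log2 ratio of -0.82.

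The enzymes that assemble the sugar on the cytosolic face of the ER showed the widest spread of any ER step, with 2 genes past 2-fold on the zygote side, 1 on the PB2 side and 3 within 2-fold. Alg11 (chr8:22060721-22071627, plus strand), which adds the last mannoses on this face, was at 10.6 TPM in the zygote against 1.1 TPM in PB2 (log2 ratio -2.47). It had the lowest ratio of all 81 genes, and rounding of the table to 1 decimal leaves its zygote level between 9.17 and 10.1 times its PB2 level. Alg14 (chr3:121291773-121363094, plus strand), the membrane subunit of the enzyme that adds the second N-acetylglucosamine (GlcNAc), was at 14.9 TPM in the zygote against 4.6 TPM in PB2 (log2 ratio -1.51). Its catalytic partner Alg13 was the most abundant gene of the step in both libraries, at 63.2 and 37.0 TPM (log2 ratio -0.76). Both subunits of this enzyme were thus lower in PB2, Alg13 by less than 2-fold.

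The gene in the opposite direction was Alg1, which adds the first mannose, at 3.1 TPM in the zygote against 10.7 TPM in PB2 (log2 ratio 1.51). Its exons share 17.6% of their bases with Eef2kmt on the opposite strand, which was at 1.7 and 1.3 TPM. Whether the counting used strand is not given in the sources used here. Alg2, which adds the next mannoses, was at 10.2 and 15.9 TPM, and Dpagt1, which starts the chain on dolichol phosphate, was at 0.6 and 1.5 TPM. The median log2 ratio of the 6 genes was -0.08.

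On the lumenal face 4 of 5 genes had a ratio above 0, and the median log2 ratio was 0.90, or 0.69 after centring on all genes. Alg10b, which adds the terminal glucose that the oligosaccharyltransferase recognises, was at 32.3 TPM in the zygote against 76.0 TPM in PB2 (log2 ratio 1.21). It was the only lumenal gene past 2-fold on the scale used here. Alg10b fell just within 2-fold after centring (0.9999), and also with the length trend removed (0.88). Alg8, which adds the glucose before it, was at 19.7 and 37.6 TPM, and the mannosyltransferases Alg9 and Alg12 were at 4.4 and 9.7 TPM and at 5.4 and 6.9 TPM. Alg3, the first mannosyltransferase of this face, went the other way at 18.2 TPM in the zygote against 9.9 TPM in PB2, so that the level of Alg10b relative to Alg3 was 1.77 in the zygote and 7.68 in PB2. Dpm2, an accessory subunit of the enzyme that makes the mannose donor, was at 67.3 and 42.9 TPM (log2 ratio -0.64). No row carried the symbols Alg5, Alg6, Dpm1 or Dpm3.

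All 5 oligosaccharyltransferase genes of the set had a log2 ratio above 0, with a median of 0.59 that was 0.38 after centring on all genes. They are only a part of the complex, and 7 further genes of it, with symbols outside the set, had a median of -0.17. Rpn1, a shared accessory subunit, was at 7.9 TPM in the zygote against 17.9 TPM in PB2 (log2 ratio 1.09), and it was within 2-fold after centring. Stt3b, the catalytic subunit of the complex that can also act after translation, was at 150.7 and 208.4 TPM. Stt3a, the catalytic subunit of the complex bound to the translocon, was at 25.6 and 29.3 TPM. Stt3b was thus several times as abundant as Stt3a in either library, by 5.89-fold in the zygote and 7.11-fold in PB2. Ddost was at 27.2 and 41.4 TPM and Rpn2 at 5.7 and 9.5 TPM.

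**Figure D2:**
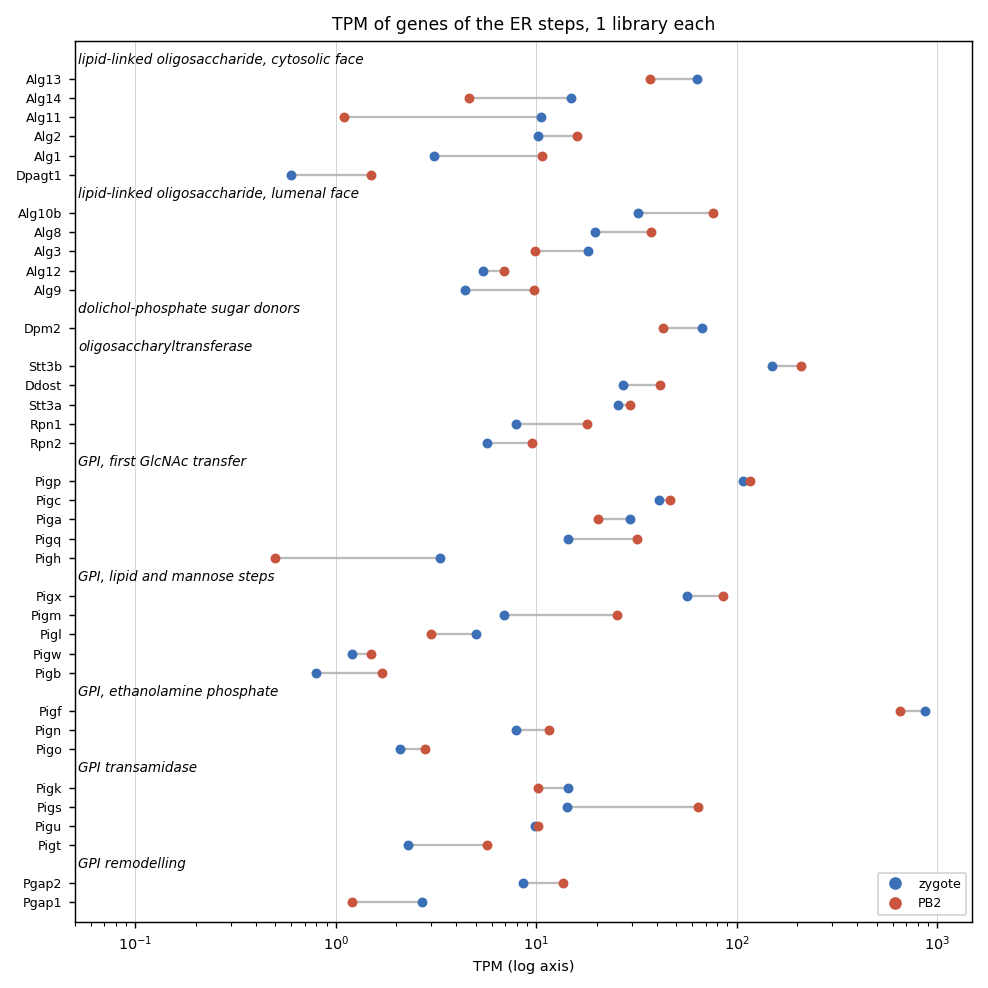
TPM on a log axis of each gene of the ER steps in the zygote library (blue) and the PB2 library (red), joined by a line and grouped by step. Pigf stands farthest to the right at 866.8 and 651.8 TPM, and the longest lines are those of Alg11, from 10.6 to 1.1 TPM, and Pigh, from 3.3 to 0.5 TPM.

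The GPI anchor genes, 19 in all, had a median log2 ratio of 0.19, which was -0.02 after centring. Of them, 4 (21.1%, background 18.9%) lay past 2-fold on the PB2 side and 1 (5.26%, background 8.09%) on the zygote side. These shares were near the background. The group was dominated by Pigf, the partner protein of the enzymes that add ethanolamine phosphate to the mannoses. Pigf was at 866.8 TPM in the zygote against 651.8 TPM in PB2 (log2 ratio -0.41), and was the most abundant of all 85 genes in both libraries. It ranked 157 of all genes in the zygote and 194 in PB2. Its exons share 31.6% of their bases with Rhoq on the opposite strand, which was not analysed here. The transferases that work with or beside it were far lower, with Pigo at 2.1 and 2.8 TPM and Pign at 7.9 and 11.6 TPM.

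The enzyme complex that starts the anchor, GPI GlcNAc transferase, was uneven. Its most abundant subunits Pigp, at 107.5 and 117.1 TPM, and Pigc, at 40.8 and 46.7 TPM, were close to equal in the libraries. The catalytic subunit Piga was at 29.4 TPM in the zygote against 20.3 TPM in PB2, while Pigq was at 14.4 and 32 TPM (log2 ratio 1.10). The level of Pigq relative to Piga was 0.49 in the zygote and 1.58 in PB2. Pigh was at 3.3 TPM in the zygote against 0.5 TPM in PB2 (log2 ratio -1.52), and was the scarcest subunit in either library. Of its exon bases 27.3% are shared with Plekhh1 on the opposite strand, which had the opposite direction at 1.0 and 2.7 TPM. The median log2 ratio of the 5 subunits was 0.12, which turned to -0.09 after centring and to -0.15 after removal of the length trend.

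In the lipid and mannose steps, Pigm (chr1:172376546-172384099, plus strand), the first mannosyltransferase, was at 6.9 TPM in the zygote against 25.2 TPM in PB2 (log2 ratio 1.73). Its partner Pigx was more abundant and within 2-fold, at 56.5 and 85.3 TPM. Pigl, the de-N-acetylase that acts before them, was at 5.0 and 3.0 TPM (log2 ratio -0.58). Pigw, an inositol acyltransferase, and Pigb, a later mannosyltransferase, stayed under 2 TPM in both libraries, at 1.2 and 1.5 TPM and at 0.8 and 1.7 TPM. Pigm was the only gene of the 5 past 2-fold on the scale used here. No row carried the symbols Pigg, Pigv or Pigy.

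In GPI transamidase, the catalytic subunit and a partner lay far apart. Pigs (chr11:78328415-78342782, plus strand), a subunit without the protease site, was at 14.3 TPM in the zygote against 64.3 TPM in PB2 (log2 ratio 2.09). Pigk, the catalytic subunit, was at 14.4 and 10.2 TPM (log2 ratio -0.46). Pigs and Pigk were therefore at nearly the same level in the zygote, while Pigs was 6.30 times as abundant as Pigk in PB2. Pigu was at 9.9 and 10.2 TPM, and Pigt was at 2.3 and 5.7 TPM (log2 ratio 1.02). Gpaa1, the fifth subunit, has a symbol outside the set and was at 0.7 and 3.7 TPM. Pigs made up 34.4% of the summed TPM of the 5 subunits in the zygote and 68.3% in PB2. The median log2 ratio of the 4 Pig subunits was 0.53, which turned to -0.06 after removal of the GC trend.

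Remodelling of the finished anchor was covered by 2 genes. Pgap1, which removes an acyl chain from the inositol in the ER, was at 2.7 TPM in the zygote against 1.2 TPM in PB2. Pgap2, which acts on the lipid in the Golgi, was at 8.6 and 13.6 TPM. Both were within 2-fold on the scale used here. Tmem8, also known as Pgap6, cleaves anchored proteins at the surface and was at 4.8 and 20.2 TPM (log2 ratio 1.87). It is 1 of 5 further GPI genes with symbols outside the set, which had a median log2 ratio of 0.99. Of these 5, 2 (40.0%, background 18.9%) passed 2-fold toward PB2 and 0 (background 8.09%) toward the zygote. With 5 genes, such shares carry little weight. No row carried the symbol Pgap3.

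The Golgi and other later steps held 45 genes compared, of which 11 (24.4%, background 18.9%) lay past 2-fold on the PB2 side and 3 (6.67%, background 8.09%) on the zygote side, with a median log2 ratio of 0.55. These shares were again near the background. Among the mannosidases, Man1c1 (chr4:134561690-134704290, minus strand) was at 2.8 TPM in the zygote against 16.2 TPM in PB2 (log2 ratio 2.18). Its relative Man1a was at 3.5 and 2.5 TPM (log2 ratio -0.36), and Man1a2 was at 5.0 and 9.8 TPM (log2 ratio 0.85). Man1c1 was the least abundant of the 3 Golgi mannosidases I in the zygote, with 24.8% of their summed TPM, and the most abundant in PB2, with 56.8%. The sum itself was 11.3 TPM in the zygote against 28.5 TPM in PB2. Man2a1, the mannosidase II that trims after them, was at 4.1 and 4.9 TPM, and Man2a2 stayed at 0.1 and 0.3 TPM. Man2b1, a lysosomal mannosidase that the symbols also caught, was at 1.4 and 1.0 TPM. No row carried the symbol Man1b1.

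**Figure D3:**
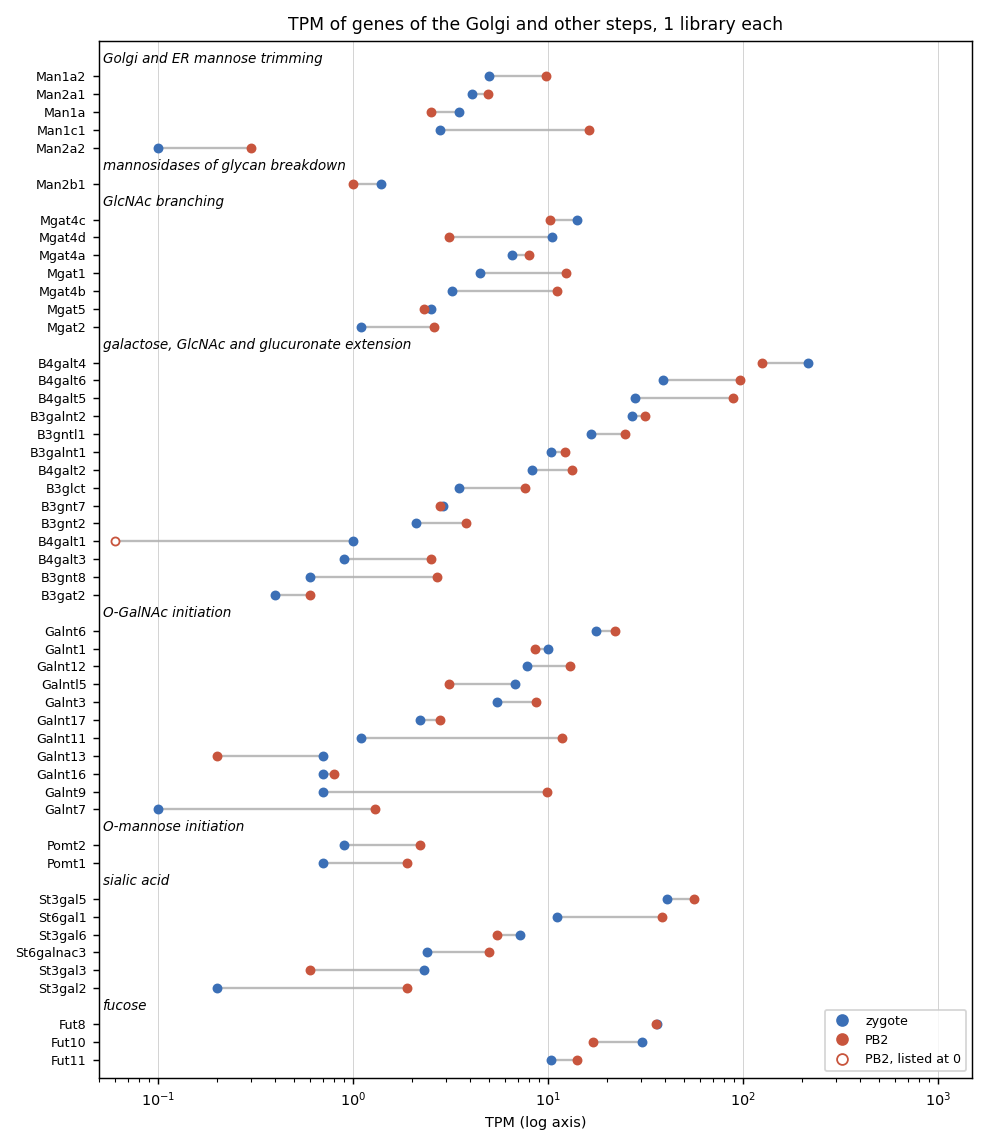
TPM on a log axis of each gene of the Golgi and other later steps in the zygote library (blue) and the PB2 library (red), joined by a line and grouped by step, with an open circle where PB2 was listed at 0. The longest lines with a value in both libraries are those of Galnt9, from 0.7 to 9.9 TPM, Galnt7, from 0.1 to 1.3 TPM, and Galnt11, from 1.1 to 11.8 TPM.

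Mgat1, the gateway enzyme that starts hybrid and complex N-linked sugars, was at 4.5 TPM in the zygote against 12.4 TPM in PB2 (log2 ratio 1.28). Mgat4d, a family member known to inhibit Mgat1, was at 10.5 TPM in the zygote against 3.1 TPM in PB2 (log2 ratio -1.49). The inhibitor's transcript was more abundant than that of the enzyme in the zygote, and less abundant in PB2, with Mgat1 at 0.43 and 4.0 times the level of Mgat4d. Mgat4b was at 3.2 and 11.1 TPM (log2 ratio 1.53), while Mgat4c was at 14.1 and 10.2 TPM (log2 ratio -0.43). Mgat4a lay between them at 6.5 and 8.0 TPM. Summed over all 4 Mgat4 genes, with the inhibitor Mgat4d included, the level was 34.3 TPM in the zygote against 32.4 TPM in PB2. Mgat2, which starts the second antenna, was at 1.1 and 2.6 TPM, and Mgat5, which adds a further branch, was at 2.5 and 2.3 TPM. The median log2 ratio of the 7 branching genes was 0.26, and turned to -0.05 after removal of the length trend.

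In the galactosyltransferase family the share of the leading gene differed between the libraries. B4galt4 was at 214.7 TPM in the zygote against 125.6 TPM in PB2 (log2 ratio -0.77), and had the highest level of the family in both libraries. B4galt5 was at 28.0 and 88.4 TPM (log2 ratio 1.62). B4galt6 was at 38.7 and 96.1 TPM (log2 ratio 1.29). B4galt5 and B4galt6 are the lactosylceramide synthases, which put galactose on a glycolipid, so the step is not one of glycoproteins alone. B4galt4 made up 73.6% of the family's summed TPM in the zygote and 38.5% in PB2, B4galt5 9.60% and 27.1%, and B4galt6 13.3% and 29.5%. The family sum was 291.6 TPM in the zygote against 325.9 TPM in PB2. B4galt1, the galactosyltransferase best known for N-linked sugars, had 1.0 TPM in the zygote, and PB2 was listed at 0. B4galt2, which shares 28.2% of its exon bases with Ccdc24 on the same strand, was at 8.3 and 13.3 TPM, and B4galt3 at 0.9 and 2.5 TPM.

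Of the other extending enzymes, B3gnt8, a GlcNAc transferase, was the only gene past 2-fold on the scale used here, at 0.6 and 2.7 TPM (log2 ratio 1.21). Its exons share 18.1% of their bases with Bckdha on the opposite strand. The most abundant were B3galnt2, which extends O-mannose sugars, at 27.0 and 31.3 TPM, B3gntl1 at 16.7 and 24.9 TPM, and the glycolipid enzyme B3galnt1 at 10.3 and 12.2 TPM. B3glct, which adds glucose to O-linked fucose, was at 3.5 and 7.6 TPM, B3gnt2 at 2.1 and 3.8 TPM, and B3gnt7 at 2.9 and 2.8 TPM. Of the exon bases of B3gnt2, 58.6% are shared with another gene model on the same strand, so its level is uncertain. Over the whole step, 3 of 13 genes compared (23.1%, background 18.9%) lay past 2-fold on the PB2 side and 1 (7.69%, background 8.09%) on the zygote side. The median log2 ratio of the step was 0.62.

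**Figure D4:**
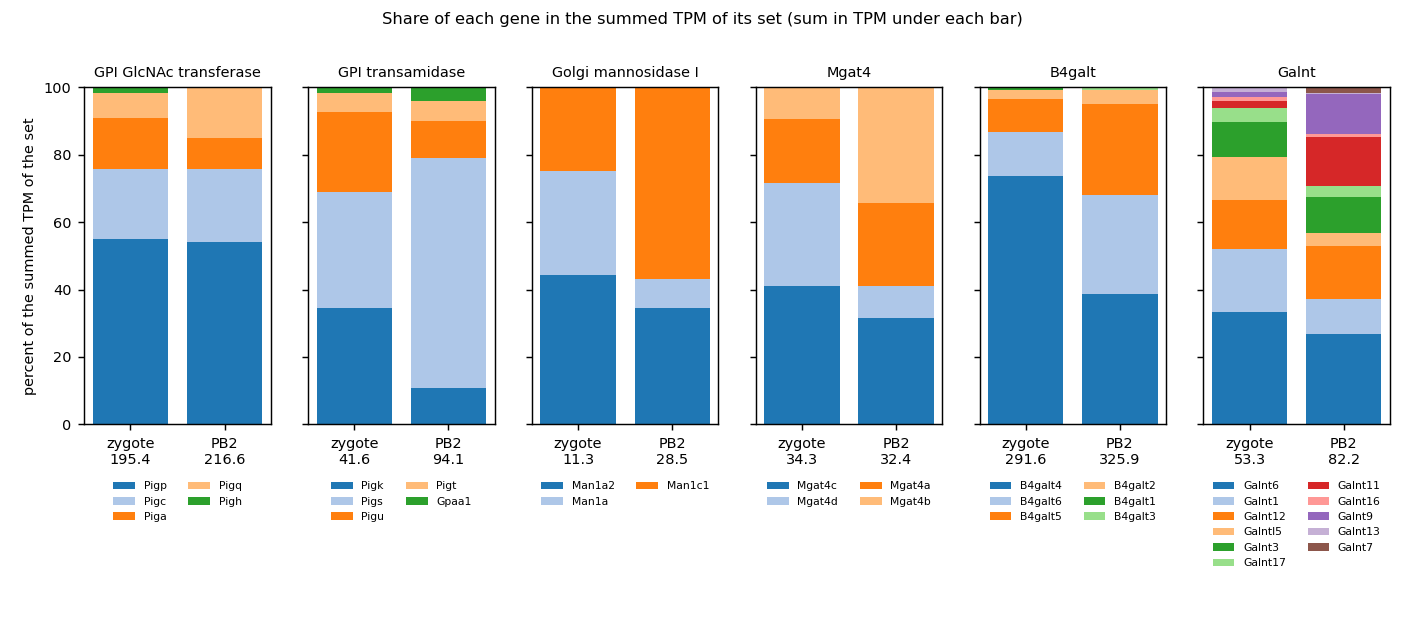
Stacked bars show the percent of the summed TPM of each set that each of its genes took in the zygote library and in the PB2 library, with the sum in TPM under each bar; the GPI transamidase set includes Gpaa1. The share of Pigs was 34.4% in the zygote and 68.3% in PB2, that of Man1c1 24.8% and 56.8%, and that of B4galt4 73.6% and 38.5%.

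The enzymes that start O-linked sugars with N-acetylgalactosamine held the highest ratios of all 81 genes. Galnt9 (chr5:110544355-110621380, plus strand) was at 0.7 TPM in the zygote against 9.9 TPM in PB2 (log2 ratio 2.68). Galnt11 (chr5:25221904-25265918, plus strand) was at 1.1 and 11.8 TPM (log2 ratio 2.61). Both were scarce in the zygote, where rounding leaves the PB2 level of Galnt9 between 13.1 and 15.3 times, and that of Galnt11 between 10.2 and 11.3 times, the zygote level. Galnt7 was past 2-fold as well but near the limit of the table, at 0.1 and 1.3 TPM. The most abundant member, Galnt6, was within 2-fold at 17.7 and 22 TPM, and its sign turned after removal of the GC trend, to -0.38. Galnt1 was at 10 and 8.6 TPM, Galnt12 at 7.8 and 13.0 TPM, Galnt3 at 5.5 and 8.7 TPM, and Galnt17 at 2.2 and 2.8 TPM. Galntl5, a relative of these enzymes, was at 6.8 TPM in the zygote against 3.1 TPM in PB2. Galnt9 and Galnt11 together with Galnt6 and Galnt12 were thus the 4 leading members in PB2, while Galnt9 and Galnt11 had 1.31% and 2.06% of the family's summed TPM in the zygote, and 12% and 14.4% in PB2. Pomt1 and Pomt2, the subunits of the enzyme that starts O-mannose sugars, were at 0.7 and 1.9 TPM and at 0.9 and 2.2 TPM, with log2 ratios of 0.77 and 0.75.

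Among the sialyltransferases, St6gal1 (chr16:23224740-23360350, plus strand), which caps galactose of N-linked sugars, was at 11.1 TPM in the zygote against 38.5 TPM in PB2 (log2 ratio 1.71). St3gal2 was also past 2-fold, at 0.2 and 1.9 TPM (log2 ratio 1.27). St3gal3 was at 2.3 TPM in the zygote against 0.6 TPM in PB2 (log2 ratio -1.04). The most abundant of the 6 genes in both libraries was St3gal5, which makes the ganglioside GM3 and so acts on glycolipids, at 40.9 and 56.2 TPM. St3gal6 was at 7.2 and 5.5 TPM and St6galnac3 at 2.4 and 5.0 TPM. Of the exon bases of St3gal6, 26.0% are shared with Dcbld2 on the opposite strand, which was at 8.0 and 10.3 TPM.

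None of the 3 fucosyltransferases was past 2-fold on the scale used here. Fut8, which puts the core fucose on N-linked sugars, was at 36.2 TPM in the zygote against 35.8 TPM in PB2. Fut10 was at 30.5 and 17.0 TPM (log2 ratio -0.81), and Fut11 was at 10.4 and 14 TPM (log2 ratio 0.40). Fut10 was counted as higher in the zygote after centring or after removal of the length trend.

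Within the set, the log2 ratio was higher for genes whose longest protein-coding transcript was rich in G and C. Spearman's rho was 0.42 over the 81 genes and 0.44 over the 10629 genes of the table that had a transcript, all of which share the same pair of amplified libraries. Of 28 genes in the highest GC tertile of all genes, above 52.15%, 11 passed 2-fold toward PB2, which is 39.3%, where all genes of that tertile gave 37.5%. Of the 28 genes in the lowest tertile, below 46.18%, 4 passed it toward PB2 and 4 toward the zygote, each 14.3%, where all genes there gave 4.94% and 14.4%. The median GC content was 55.0% for the genes higher in PB2, 43.6% for those higher in the zygote and 48.6% for the rest. The part of GC content in these ratios was not tested.

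When the trend of the ratio on GC content over all genes was removed, 11 of the 81 genes lay past 2-fold on the PB2 side (background 9.06%) and 8 on the zygote side (background 11.0%). Of the 11 genes, 10 were among the 18, and Man1a2 was added. The 8 genes no longer past 2-fold were Alg1, B3gnt8, Mgat1, Mgat4b, Pigq, Pigt, Rpn1 and St3gal2. Pigs was at 1.33 and Man1c1 at 1.35 on the log2 scale after this step, each still past 2-fold. Pigm, at 42.7% GC, and Alg10b, at 41.2%, had high ratios in spite of a low GC content and were at 1.92 and 1.48 after it. St3gal3, at 58.5% GC, was lower in PB2 in spite of a high one, and was at -1.93.

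**Figure D5:**
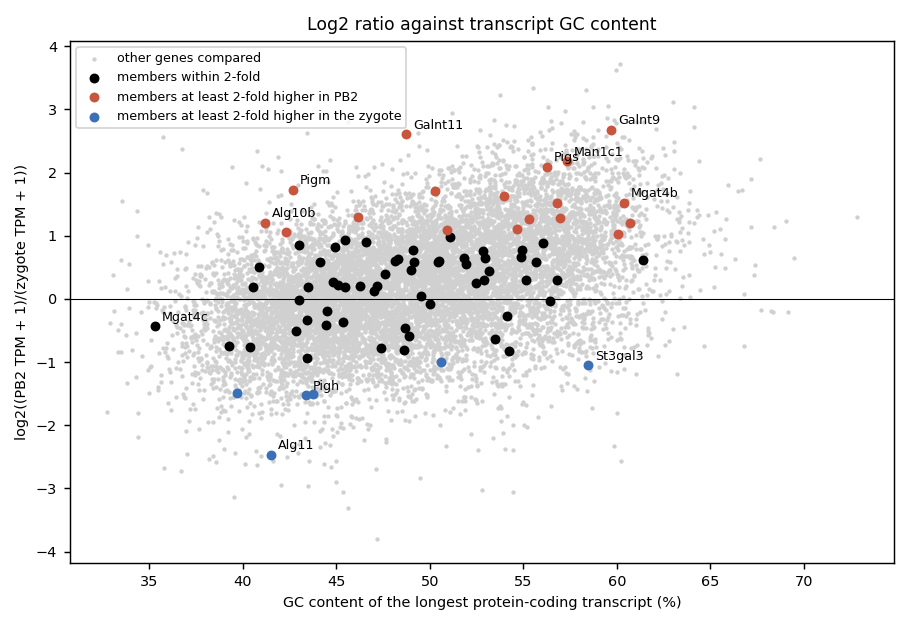
Log2((PB2 TPM + 1)/(zygote TPM + 1)) of each gene against the GC content in percent of its longest protein-coding transcript, with the set in colour or black and all other genes compared in grey. Ratios rise with GC content in the set as in the grey cloud (Spearman's rho 0.42 and 0.44), with Pigm, Alg10b and St3gal3 among the labelled genes away from that trend.

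Of the 18 genes higher in PB2, 7 stayed past 2-fold under all 7 alternative pseudocounts, scalings and trend removals. These were B4galt5, Galnt11, Galnt9, Man1c1, Pigm, Pigs and St6gal1. All 6 genes higher in the zygote did so too, namely Alg11, Alg14, B4galt1, Mgat4d, Pigh and St3gal3, of which B4galt1, Pigh and St3gal3 never reached 5 TPM. The smaller pseudocounts enlarge every ratio, and centring and scaling of the zygote lower every ratio. None of these could remove a gene from the zygote side, so the shares that stayed cannot be compared between the sides.

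Signs of other cells were looked for because cumulus cells surround the egg. All 15 oocyte markers were at 1 TPM or more in both libraries. Of 19 cumulus and granulosa markers 5 had a row, with a summed level of 81.7 TPM in the zygote against 84.8 TPM in PB2, most of it Cyp19a1 at 72.2 and 70.9 TPM. Of these 5, 3 reached 1 TPM in the zygote and 4 in PB2, and Cyp11a1 was listed at 0 in the zygote. The part of such cells in the ratios of the glycosylation genes was not tested.

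Genes of the same pathways with other symbols were also near the background as a whole. Of 110 such genes listed, 80 were compared, with 19 past 2-fold on the PB2 side, or 23.8% beside 18.9% of all genes, 6 on the zygote side, or 7.5% beside 8.09%, and a median log2 ratio of 0.35. The remaining 7 genes of the oligosaccharyltransferase were all within 2-fold, with ratios on both sides of 0. Their median was -0.17, where that of the 5 genes above was 0.59. Tusc3 was at 252.9 and 295.1 TPM and Dad1 at 231.1 and 205.2 TPM. Of 22 genes for dolichol and sugar donors, 6 (27.3%, background 18.9%) passed 2-fold toward PB2 and 2 (9.09%, background 8.09%) toward the zygote. Their median log2 ratio was 0.48. Cmas, which activates sialic acid for the sialyltransferases, was at 23.8 TPM in the zygote against 103.0 TPM in PB2 (log2 ratio 2.07), and Nans, which acts before it, was at 8.7 and 18.4 TPM. Ugp2, which makes the glucose donor, was at 11.9 and 4.6 TPM. The second gene toward the zygote was Pmm2, which makes the mannose donor's precursor, at 1.4 TPM in the zygote and listed at 0 in the other library.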

How the data were processed

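The data are 1 PB2 library and 1 zygote library of amplified full-length cDNA. The submitters' processing notes name CASAVA, HISAT2 2.0.4, HTSeq 0.6.1p1 and DESeq2 1.18.1, with the builds OryCun2.0 (rabbit) and GRCm38 (mouse), and the identifiers are mouse Ensembl identifiers. The authors deposited TPM values, rounded to 1 decimal, and how TPM was computed is not stated. Summed over the table, they reach 92.7% of a library in the zygote and 89.8% in PB2. Columns were matched to samples by name, with 0 left over. Without counts, neither depth nor counting error can be given.

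Log2 ratios used a pseudocount of 1 and genes with at least 1 TPM in either library. With 1 library per group no test was run. Members and lists were chosen with earlier results of these data known. Genes named were, within each step, those at least 2-fold apart that reached 10 TPM, the most abundant in the zygote, the largest ratio in each direction with at least 5 TPM, and catalytic or paralogous pairs, 49 in all. The other members are named so that each is accounted for. Outside the set, genes at least 2-fold apart that reached 10 TPM were eligible, and Tusc3, Dad1, Gpaa1, Pmm2 and genes that share exon bases with a member were added after their values were seen. The values of some genes outside the set are not reported here.

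Alternatives were other pseudocounts (0.1 and 0.01), filters, thresholds and scalings, and removal of a loess trend (span 0.3) on GC content or length of the longest protein-coding GENCODE M21 transcript, which 11246 of the 11262 genes had. Removal of the GC trend and the 2-fold count were tested on simulated data, built only from genes well expressed in the zygote. Genes at a few TPM were not covered by that test. The work was done in Python 3.11.15 with pandas 2.3.3 and numpy 2.4.6, trends were fitted with statsmodels 0.14.6, correlations came from scipy 1.17.1, and plots from matplotlib 3.10.9.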

Additional observations from a re-analysis of the deposited data

How the results depend on the processing

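No replicate could be left out. No paired analysis was possible because there was only 1 library of PB2 and 1 of the zygote. Depth is unknown, so values near 0.1 TPM, the last digit of the table, are the least certain. The count of 18 genes higher in PB2 was 37 at a threshold of 1.5-fold, 4 at 4-fold, 11 with the GC trend removed and 10 with the length trend removed. The count of 6 genes higher in the zygote was 14 at 1.5-fold, 1 at 4-fold and 3 with a filter at 5 TPM. All other counts were within 1.5 times of these: 27 and 8 with a pseudocount of 0.1 or 0.01, 18 and 6 with no filter, 17 and 6 with the zygote scaled to a median ratio of 1, and 18 and 7 after rescaling without mitochondrial and the 50 most abundant genes. The share over all genes was computed only at the main setting, after centring and with the GC trend removed. Counts at the other settings therefore cannot be set against a background.

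The median log2 ratio of the set was above 0 under every alternative run, from 0.15 with the GC trend removed to 0.50 with a filter at 5 TPM. Of the step medians, that of the cytosolic-face enzymes was -0.76 and that of mannose trimming 1.51 with a filter at 5 TPM, which leaves fewer genes. With the GC trend removed, the median was -0.32 for the ethanolamine phosphate step and -0.064 for GPI transamidase, and the cause was not tested.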

Other observations

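The chaperones that read the sugar of a newly made glycoprotein in the ER did not share 1 direction in these libraries. Calr, the calreticulin of most cells, was at 163.9 TPM in the zygote against 329.7 TPM in PB2 (log2 ratio 1.00), while its relative Calr3 was at 156.9 and 71.8 TPM (log2 ratio -1.12). Canx, the membrane-bound calnexin, was within 2-fold at 128.9 and 170.2 TPM (log2 ratio 0.40). Pdia3, the disulfide isomerase that works with calreticulin, was at 166.8 and 76.1 TPM (log2 ratio -1.12). Edem2, which acts in the disposal of misfolded glycoproteins, was at 73.9 and 171.1 TPM (log2 ratio 1.20). Calr fell within 2-fold with the zygote scaled (0.92), after rescaling without mitochondrial and the 50 most abundant genes (0.92) and after centring (0.79). It also did so with the GC trend (0.73) or the length trend (0.75) removed. Edem2 fell within 2-fold after centring (0.99) and with the GC trend (0.67) or the length trend (0.93) removed. Of the 17 folding and quality control genes compared, 3 (17.6%, background 18.9%) passed 2-fold toward PB2 and 2 (11.8%, background 8.09%) toward the zygote. Their median log2 ratio was 0.36. The remaining gene toward PB2 was Uggt1, the folding sensor, at 1.9 and 7.2 TPM.

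The Golgi transporter list, made of the nucleotide-sugar transporter family and Tmem165, which serves Golgi manganese, held 2 genes with a log2 ratio of 1.62, Slc35a4 at 53.7 TPM in the zygote against 167.6 TPM in PB2, and Slc35c2 at 5.0 and 17.4 TPM. Of the 11 genes of this list compared, 3 (27.3%, background 18.9%) passed 2-fold toward PB2 and 1 (9.09%, background 8.09%) toward the zygote. Their median log2 ratio was 0.45. The remaining pair was Tmem165 at 3.6 and 8.5 TPM and, toward the zygote, Slc35d2 at 6.2 and 2.2 TPM. Slc35a1, the carrier of activated sialic acid, was at 81.4 and 90.9 TPM, beside the larger difference of Cmas. Among enzymes of other O-linked sugars, Ogt, which puts GlcNAc on nuclear and cytosolic proteins, was at 20.2 and 41.6 TPM, and Mfng, which modifies O-linked fucose of Notch, was at 5.4 and 12.1 TPM. Of these 18 enzymes, 5 (27.8%, background 18.9%) passed 2-fold toward PB2 and 1 (5.56%, background 8.09%) toward the zygote. Their median log2 ratio was 0.38. Others past 2-fold were Rfng at 2.7 and 8.0 TPM and Xylt1 at 0.4 and 2.7 TPM toward PB2, and Poglut1 at 2.2 and 0.4 TPM toward the zygote. Canx, Slc35a1 and the genes here that stayed under 10 TPM were chosen for print after their values were seen.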
